A study of Homo sapiens with 36 samples.

Results

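Mitochondrial ribosomal proteins are encoded in the nucleus and carry the gene symbols MRPL, for the large subunit, and MRPS, for the small subunit. The members described here were all genes whose symbol matched MRPL or MRPS followed by a number and, in some, a letter. That rule uses no measured difference, but it was set with earlier results of these data known. The members came to 78 of the 18048 genes with values, 49 of the large and 29 of the small subunit by name. All 78 had a mean of at least 10 in the tables for 48 h, 6 weeks and 12 weeks. The proteins are made in the cytosol, imported and assembled with RNA transcribed from the mitochondrial genome. The resulting mitoribosome translates the mitochondrially encoded subunits of the respiratory chain and of ATP synthase. It has more protein and less RNA than its bacterial relative, and many of its proteins have no bacterial counterpart. The symbols do not always match the place in the particle: MRPS18A and MRPS30 sit in the large subunit, and MRPS36 is now regarded as a component of the 2-oxoglutarate dehydrogenase complex. They were kept under their names.

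RNA was sequenced from EA.hy926, an established human line made by fusing umbilical vein endothelial cells with a lung carcinoma line, with a genotype given as WT. The cells were exposed to perfluorooctanoic acid (PFOA), a persistent fluorinated surfactant, for 48 h at 1, 10 or 100 µM, or continuously for 6 or 12 weeks at 1, 10 or 100 nM. At each time the control received the vehicle alone, 0.05% DMSO, and all groups were grown in medium with hypoxanthine, aminopterin and thymidine. The 12 groups had 3 biological replicates each, and the long exposures were sampled from flasks during passaging. All groups are of 1 tumour hybrid line, which limits them as a model of endothelium.

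The 36 libraries held 17815292 to 19466331 recovered reads, of which 70077 to 131925 lay on the members, and a member had at least 34 reads in any library. Values below are normalised read counts, meaning reads divided by a size factor per library, and differences are in mean log2(normalised count + 1) of a dose minus the control of its time. Of 13 endothelial markers, 11 had a median of at least 10 over the libraries, among them PECAM1, CDH5 and TIE1, whereas KDR (0 to 5.19) and CLDN5 (0 to 0.747) were at or near 0. Leukocyte markers summed to 1.47 to 16.9, and 0 of the 4 with values reached a median of 10. The epithelial list reached it for KRT8, KRT18 and EPCAM and summed to 12176 to 162506, and of 7 fibroblast and smooth muscle markers only ACTA2 did.

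Nuclear respiratory factor 1 (NRF1), the ETS-family factor GABP and YY1 are known regulators of nuclear genes for mitochondrial proteins, so the 250 bases before the RefSeq start (GRCh38.p14) were searched for their core letters on both strands. A promoter was found for 69 of the 78 members, and not for MRPL10, MRPL13, MRPL15, MRPL2, MRPL21, MRPL23, MRPL35, MRPS28 and MRPS36. The ETS core CCGGAAG was in 33.3% of the members' windows and in 16.4% of the 9774 windows of genes tested at all times. For the YY1 core AAGATGG the shares were 10.1% and 3.43%, and for the NRF1 core, GCGCA and GCGC with any 1 base between, they were 11.6% and 10.8%. The SP1 letters GGGCGG were in 55.1% against 67.4% and the TATA box TATAAA in 2.90% against 5.35%. By subunit the SP1 letters were in 45.2% of windows for the large and 70.4% for the small. Both subunits had the ETS core in 33.3% of windows, 14 of 42 for the large and 9 of 27 for the small. Of its 30 positions in the members, 24 lay within 100 bases of the start. The 46 ETS, YY1 and NRF1 positions fell in 35 promoters, and 0 of them shared a base with another of the 3 cores. These are matches of letters and no test of binding.

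The promoters of 7 members are shown because they carry these cores and belong to members on both sides of the control at 6 weeks. MRPS34, MRPS18A, MRPL54, MRPL52 and MRPL17 had lower means at 10 nM than in the control, and MRPL3 and MRPL30 had higher means. Each line runs 5′ to 3′ on the gene's strand up to the base before the start, and capitals mark the ETS, YY1 and NRF1 cores. The windows are chr16:1773135-1773384 (- strand) with 3 ETS cores, chr6:43687792-43688041 (- strand) and chr19:3762432-3762681 (+ strand) with 1 each, chr14:22829637-22829886 (+ strand) with 2 YY1 cores, chr11:6683341-6683590 (- strand) with 1 NRF1 core that reads on both strands, chr3:131502972-131503221 (- strand) with 1 ETS core, and chr2:99180934-99181183 (+ strand) with 1 ETS and 1 NRF1 core.
MRPS34: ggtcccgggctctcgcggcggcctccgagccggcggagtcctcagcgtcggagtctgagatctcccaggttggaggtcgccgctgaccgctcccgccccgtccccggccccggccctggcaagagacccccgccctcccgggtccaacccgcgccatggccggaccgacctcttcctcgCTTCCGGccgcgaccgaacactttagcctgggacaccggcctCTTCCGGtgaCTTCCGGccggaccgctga
MRPS18A: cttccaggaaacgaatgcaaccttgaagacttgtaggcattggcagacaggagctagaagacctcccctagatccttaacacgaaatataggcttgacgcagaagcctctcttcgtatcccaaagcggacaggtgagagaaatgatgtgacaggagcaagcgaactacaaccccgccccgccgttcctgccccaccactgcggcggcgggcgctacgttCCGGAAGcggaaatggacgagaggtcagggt
MRPL54: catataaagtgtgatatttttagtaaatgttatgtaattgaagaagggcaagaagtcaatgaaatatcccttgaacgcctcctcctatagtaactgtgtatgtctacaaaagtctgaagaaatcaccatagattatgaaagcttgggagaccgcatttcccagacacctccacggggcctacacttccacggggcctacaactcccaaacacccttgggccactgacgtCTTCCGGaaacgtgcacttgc
MRPL52: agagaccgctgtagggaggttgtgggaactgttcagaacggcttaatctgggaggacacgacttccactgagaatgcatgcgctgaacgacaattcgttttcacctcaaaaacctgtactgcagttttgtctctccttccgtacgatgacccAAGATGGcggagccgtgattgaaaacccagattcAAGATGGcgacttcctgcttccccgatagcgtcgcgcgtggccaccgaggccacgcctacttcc
MRPL17: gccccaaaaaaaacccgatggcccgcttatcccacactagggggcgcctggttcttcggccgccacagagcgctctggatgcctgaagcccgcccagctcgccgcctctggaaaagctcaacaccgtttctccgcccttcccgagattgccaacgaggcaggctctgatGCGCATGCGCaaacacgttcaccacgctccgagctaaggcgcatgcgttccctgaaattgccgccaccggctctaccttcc
MRPL3: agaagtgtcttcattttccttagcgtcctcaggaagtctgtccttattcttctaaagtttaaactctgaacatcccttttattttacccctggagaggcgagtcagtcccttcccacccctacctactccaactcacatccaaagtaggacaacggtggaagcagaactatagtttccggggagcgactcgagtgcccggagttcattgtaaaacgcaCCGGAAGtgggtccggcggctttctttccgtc
MRPL30: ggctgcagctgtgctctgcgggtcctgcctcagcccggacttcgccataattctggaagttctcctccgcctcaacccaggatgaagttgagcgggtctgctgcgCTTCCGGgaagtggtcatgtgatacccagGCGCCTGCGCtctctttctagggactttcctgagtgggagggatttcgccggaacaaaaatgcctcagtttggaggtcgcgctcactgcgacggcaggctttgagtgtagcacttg
The ETS core stood in promoters of members on both sides: at 6 weeks and 10 nM the 23 members with it had differences from -1.96 to 0.68 (median -1.09), and the 46 without it had a median of -0.72. The 8 members with the NRF1 core had a median of -0.94 and the 61 without it -0.79. For the YY1 core the median was -0.45 for the 7 members with it and -0.82 for the 62 without it. MRPL46 and MRPS11 stand head to head on chromosome 15, so that their windows (88467389 to 88467638 and 88467458 to 88467707) overlap, and none of the 3 cores is in either window.

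Per kilobase of the longest transcript, the members spanned a wide range in the 9 control libraries. MRPL12, which forms the flexible stalk that binds translation factors, had the highest mean, 5041 (range 1534 to 11824) normalised counts per kilobase. Next came MRPL28 with 4791 (range 1344 to 10795), MRPL54 with 4491 (range 1468 to 9361), MRPL41 with 4182 (range 1251 to 8295) and MRPL52 with 3963 (range 1822 to 7332). The ranges of these 5 members overlapped over the control libraries, so their order was not resolved. The lowest were MRPL42 with 27.9 (range 13.6 to 33.0), MRPL50 with 69.9 (range 23.3 to 98.0), MRPL19 with 114 (range 36.2 to 144), MRPS31 with 137 (range 91.8 to 173) and MRPL30 with 142 (range 84.6 to 182). The longest transcript of MRPL42 has 15582 bases, and with the median length of its transcripts MRPL42 stood 65th of 78 instead of 78th. That choice of length moved other members too: MRPL28 stood 1st at 10222, MRPL51 moved from 11th to 3rd, MRPL12 stood 5th and MRPL19 moved from 76th to 60th. By the longest transcript the median level per kilobase was 800.0 for the large and 401 for the small subunit. The size of this contrast depends on that length: MRPS23, for example, rose from 164 to 1593 with the median length of its transcripts. By that median length the middle member was MRPL3 at 1113 for the large and MRPS33 at 866 for the small subunit. The large subunit thus still stood higher. The highest small subunit members were MRPS34, MRPS24 and MRPS2, at ranks 8 to 10.

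Members also differed in how far they varied between replicates of 1 group. The within-group SD on the log2 scale was smallest for MRPS9 (0.14), MRPL9 (0.18) and MRPS16 (0.21) and largest for MRPL41 (1.06), MRPL28 (1.05) and MRPL12 (1.04), with a median of 0.49 over the members and 0.51 over the 11951 genes tested at all times. MRPL9, a large subunit protein with a bacterial homologue, stayed between 659 and 1111 in all 36 libraries, and MRPS9 between 391 and 723. MRPL12 ran from 1026 in a library at 48 h and 10 µM to 12156 in a control at 6 weeks. Much of that range lay within 1 group, for its values at 48 h and 10 µM were 4062, 1026 and 9896. In the 48 h control, 8 of 78 members spanned a 2-fold range or more (12.3% of all tested genes did). At 6 weeks and 1 nM 49 members did (68.7% of genes), and at 48 h and 10 µM 52 members (66.2% of genes).

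The large subunit took 0.235% to 0.469% of the reads of a library and the small subunit 0.152% to 0.222%. At 6 weeks the large subunit share was 0.457, 0.469 and 0.394% in the control and 0.310, 0.457 and 0.449% at 1 nM. It was 0.358, 0.276 and 0.296% at 10 nM and 0.312, 0.337 and 0.397% at 100 nM. All 3 libraries at 10 nM thus lay below all 3 controls, while 1 library at 1 nM was as low as those at 10 nM and 1 at 100 nM lay just above the lowest control. The small subunit share was 0.191, 0.222 and 0.196% in the control and 0.20, 0.170 and 0.178% at 10 nM, and these overlapped. In the same libraries cytosolic ribosomal protein genes took 19.4, 17.9 and 17.2% in the control and 13.4, 9.37 and 10.9% at 10 nM. Mitochondrially encoded genes took 9.93, 11.4 and 9.24% and 7.82, 5.99 and 6.08%. Of the reads outside these genes, the large subunit took 0.535 to 0.664% in the control and 0.326 to 0.454% at 10 nM. The small subunit took 0.267 to 0.314% and 0.201 to 0.255% of them, so on this base its groups did not overlap either. The part of cytosolic ribosomal and mitochondrially encoded reads in the members' difference was not tested. In RNA from whole cultures, fewer cells of a type and less RNA per cell cannot be told apart.

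At 48 h the large subunit share was 0.319, 0.287 and 0.359% in the control and 0.394, 0.411 and 0.307% at 100 µM, with overlap between the groups. At 12 weeks it was 0.402, 0.392 and 0.304% in the control and 0.368, 0.272 and 0.235% at 10 nM, again with overlap. The ratio of large to small subunit reads moved with the large subunit share. It was 2.39, 2.12 and 2.00 in the 6 weeks control and 1.79, 1.62 and 1.66 at 10 nM, and its lowest and highest values over all libraries, 1.55 and 2.43, were both in treated libraries.

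At 6 weeks most members stood lower in mean at 10 nM than in the control, but 0 of 78 passed the test. That was limma at an adjusted p under 0.05 over 12201 genes, and 0% of genes passed. On recovered reads edgeR's quasi-likelihood test called 0 members (0% of genes) and DESeq2 called 35, all lower (30.4% of genes). The means of 59 members were lower and of 19 higher, and the median difference was -0.77 against 0.053 for all genes. By subunit the median was -0.86 for the large (38 of 49 lower) and -0.54 for the small (21 of 29 lower). These medians were -0.14 and -0.11 in a fit with the first principal component added, and -0.037 and -0.31 with a correction for GC content and length. The component held 83.8% of the variance at 6 weeks and can take up a dose difference itself. A difference of more than 2-fold downward was seen for 33 members, 23 of the large and 10 of the small subunit, and upward for 0. In 45 members all 3 libraries lay below all 3 controls, where 29.8% of all genes did, and in 6 all 3 lay above, where 30.6% of genes did. At an unadjusted p under 0.05 there were 45 members, 43 of them lower, against 44.0% of genes. In the comparisons below limma likewise called 0 members, and so did edgeR in the 12 within a time (0% of genes). Of these 12, DESeq2 called members at 6 weeks and 10 nM and for the dose slope at 6 weeks. In the other 10 it called 0, against 0.00817% of genes at 48 h and 1 or 10 µM, 0.0164% at 6 weeks and 1 nM, 0.0163% at 12 weeks and 10 nM and for the 12 weeks slope, 0.00813% at 12 weeks and 100 nM, and 0% in the rest. With 3 libraries against 3 the exact permutation test of a single member cannot go below p = 0.1.

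The stalk protein MRPL12 (chr17:81703367-81707517) had values of 12156, 5654 and 4056 in the 6 weeks control and 2450.4, 1129 and 1351 at 10 nM. Its difference was -2.07 ± 0.70 (SE, adjusted p = 0.0953), and the groups did not overlap. An adjusted p of 0.0953 is the smallest over all 12201 genes in this comparison, and several members share it as a tie. MRPL41, a protein of the large subunit without a bacterial homologue (chr9:137551879-137552555), had 10340.3, 6675 and 4018 in the control and 2154, 1286 and 1217 at 10 nM. This was the lowest difference of all members, -2.12 ± 0.67 (SE, adjusted p = 0.0953). MRPL55 had 2460.2, 1335 and 961 and 490.1, 256 and 318, a difference of -2.10 ± 0.66 (SE, adjusted p = 0.0953). The smallest unadjusted p of a member, 0.0075, belonged to MRPL53, with 2966, 1933 and 1448 in the control and 892, 520.4 and 610.2 at 10 nM (adjusted p = 0.0953). For these 4 members the groups did not overlap, and none passed.

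The proteins around the stalk and the factor-binding site did not share 1 size of difference. MRPL10, the base to which the stalk is attached, had 1434, 1258 and 1171 in the control and 1230.4, 912 and 1207 at 10 nM, -0.21 ± 0.23 (SE, adjusted p = 0.451). MRPL11, a neighbour of the stalk base, had 4106, 2836 and 2356 and 1941, 1002 and 1220.4, -1.18 ± 0.44 (SE, adjusted p = 0.0953). So MRPL10 overlapped its control while MRPL11 and MRPL12 did not. Among the proteins near the exit of the peptide tunnel, MRPL24 had a difference of -1.54, MRPL44 of 0.28 and MRPL45, which faces the inner membrane, of 0.28. MRPL58, a peptidyl-tRNA hydrolase built into the large subunit that releases stalled peptides, had 1161, 775 and 721 in the control and 451, 352 and 426 at 10 nM without overlap, -1.09 ± 0.40 (SE, adjusted p = 0.0953).

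Several large subunit members were named by the rule for the smallest p without overlap. MRPL52 had 8197, 5644 and 3891 in the control and 2539, 1479 and 1695 at 10 nM, -1.61 ± 0.50 (SE, adjusted p = 0.0953). For MRPL54 the values were 5426, 2923 and 2042 and 1181, 672 and 778, -1.90 ± 0.61 (SE, adjusted p = 0.0953). MRPL23, MRPL27, MRPL36 and MRPL48 had differences of -2.01, -1.61, -1.53 and -1.23. All of these libraries at 10 nM lay below all of the controls. MRPL36 turned to 0.45 when GC content and length were corrected for, so its direction depends on that setting.

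In the small subunit, the decoding-centre protein MRPS12 had 4872, 2655 and 1923 in the control and 1327, 665 and 810.0 at 10 nM, -1.71 ± 0.59 (SE, adjusted p = 0.0953). MRPS11, of the platform, had 2336, 1902 and 1228 and 762, 519 and 529, -1.57 ± 0.51 (SE, adjusted p = 0.0953). Neither member overlapped its control. MRPS15 and MRPS21 stood at -1.46 and -1.40, and MRPS2 and MRPS34 at -1.63 and -1.64. MRPS7, which contacts the head of the small subunit RNA, had 2149.8, 1763 and 1443 against 1271, 858 and 953, a smaller difference of -0.80 ± 0.32 (SE, adjusted p = 0.0958). MRPS5, MRPS14, MRPS16 and MRPS22 differed by -0.54, -0.43, -0.38 and -0.057.

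The 3 human paralogues of the bacterial protein S18 differed in size. MRPS18A had 3089, 1622 and 1179 in the 6 weeks control and 721, 354 and 395 at 10 nM, -1.96 ± 0.69 (SE, adjusted p = 0.0953). MRPS18B had 1301, 1174 and 1130.4 and 1103, 745 and 828, -0.45 ± 0.25 (SE, adjusted p = 0.163), and MRPS18C 566, 678 and 443 and 468, 279 and 311, -0.69 ± 0.31 (SE, adjusted p = 0.109). For MRPS18A and MRPS18B the libraries at 10 nM lay below the controls, whereas the first MRPS18C library at 10 nM lay above the third control. The difference between the paralogues was not tested. MRPS18A also had the widest fold range of the MRPS genes, from 228 to 3254 over the 36 libraries.

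Other members had higher means at 6 weeks and 10 nM. MRPL19 (chr2:75646783-75662206), a large subunit protein with a bacterial homologue, had 218, 488 and 471 in the control and 664, 853 and 679 at 10 nM, 0.98 ± 0.40 (SE, adjusted p = 0.0978). MRPL50 had 121, 299 and 234 and 384, 364 and 372, 0.87 ± 0.41 (SE, adjusted p = 0.119). MRPS27, a pentatricopeptide repeat protein of the small subunit, had 672, 1045 and 885 and 1398, 1499.9 and 1385, 0.74 ± 0.32 (SE, adjusted p = 0.104). For these 3 members, and for MRPL30, MRPL42 and MRPL44, each library at 10 nM lay above each control. MRPL3, whose bacterial homologue lies near the peptidyl transferase centre, had 616, 1981 and 1151 and 1887, 1815 and 1674, and MRPS30 had 197, 657 and 364 and 581, 529.9 and 549.7. In both 1 control replicate was as high as the treated libraries, and the groups overlapped. In a fit with the first principal component added, MRPL19, MRPL50, MRPL42 and MRPL44 had differences of -0.0045, -0.078, -0.10 and -0.13. These directions thus depend on that setting. The fit cannot decide them, because the component can take up a dose difference itself.

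At 6 weeks and 100 nM the members were set against the same controls. Again 0 of 78 members passed (0% of genes), 57 means were lower and 21 higher, and the median was -0.63 for the large and -0.32 for the small subunit. With the first principal component added these were -0.067 and -0.061, and with the correction for GC content and length -0.079 and -0.25. No overlap was found downward for 39 members (24.4% of genes) and upward for 5 (22.9% of genes). At an unadjusted p under 0.05 there were 12 members, all lower (12.2% of genes). MRPL17 had the smallest unadjusted p among the lower members: 4025, 3263 and 2274 in the control and 783, 1135 and 1476 at 100 nM, -1.50 ± 0.59 (SE, adjusted p = 0.272). MRPL55 had the lowest difference, -1.56 ± 0.66 (SE, adjusted p = 0.272), and MRPL12 stood at -1.54 ± 0.70 (SE, adjusted p = 0.272). In the other direction MRPL50 differed by 0.72, MRPL19 by 0.69 and MRPS27 by 0.59. MRPL10 and MRPS9 were near their controls, at -0.11 and 0.12.

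At 1 nM the members were close to the control in mean and wide in spread, and 0 were under an unadjusted p of 0.05 (0.254% of genes). In 65 of 78 the mean was lower, 0 passed (0% of genes), and 58 lay within 1.2-fold of the control. The median was -0.15 for the large and -0.14 for the small subunit. There was 1 member without overlap, lower (0.557% of genes; 0 were higher, where 0.754% of genes were): MRPL33, with 687, 648 and 707 in the control and 565, 638 and 638 at 1 nM. The smallest unadjusted p was that of MRPL16, -0.34 ± 0.24 (SE, adjusted p = 1.00). The first replicate at 1 nM stood apart from the other two, as for MRPL12 with 1405, 7595 and 11984. Without that library the large subunit median turned to 0.17 and the small subunit median to 0.076. MRPL17, MRPL34 and MRPL48 then had differences of 0.16, 0.071 and 0.14, where all libraries gave -0.68, -0.27 and -0.33.

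The means over the 4 doses at 6 weeks were lowest at 10 nM for 55 members and highest in the control for 55. A slope per dose step over the 4 group means had a median of -0.26 for the large and -0.15 for the small subunit, and 0 members passed (0% of genes). At an unadjusted p under 0.05 there were 43, 40 lower and 3 higher (44.6% of genes). MRPL55 had the lowest slope, -0.64 ± 0.21 (SE, adjusted p = 0.0979), and MRPL19 the highest, 0.30 ± 0.13 (SE, adjusted p = 0.101). Without the first replicate at 1 nM, 50 members passed for this slope, 6 higher and 44 lower, where 58.1% of all genes did. DESeq2 on the recovered reads called 32, all lower (26.0% of genes), and edgeR 0 (0% of genes).

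The counts of members called depended on how the spread of a library was modelled. With library quality weights, which count libraries far from their group less, limma called 68 of 78 members at 6 weeks and 10 nM, 11 higher and 57 lower, where it called 84.3% of all genes. In the other 6 weeks comparisons it called 60 at 1 nM, 49 higher and 11 lower (75.3% of genes). That direction was opposite to the fit without weights, in which 65 of 78 means were lower. It called 52 at 100 nM, 9 higher and 43 lower (68.7%), and 67 for the slope, 14 higher and 53 lower (82.1%). At 48 h it called 5 at 1 µM, all lower (13.4% of genes), and 71 at 100 µM, 54 higher and 17 lower (88.7%). For the 48 h slope it called 52, 39 higher and 13 lower (57.9%). At 12 weeks it called 10 at 1 nM, 7 higher and 3 lower (33.5%), where 47 of 78 means were lower without weights. It called 61 at 12 weeks and 10 nM, 6 higher and 55 lower (73.9%). For the difference between 12 and 6 weeks it called 49 at 1 nM (52.9% of genes) and 14 at 10 nM (39.4%). As shares of the 78 members these counts were lower than those of all genes at 48 h and 1 µM, at 12 weeks and 1 nM and for the difference at 10 nM. They were higher for the 48 h slope and for the difference at 1 nM, and close to those of all genes in the rest. The estimation of these weights stopped before its convergence tolerance was met. A fit on only the control and the 10 nM group at 6 weeks called 40 members, 1 higher and 39 lower (38.9% of genes).

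The members' order along these differences followed the base composition of their transcripts. Of the 38 members whose longest transcript has a GC content of at least 50%, 38 had a lower mean at 6 weeks and 10 nM, with a median of -1.50. Of the 40 members below 50%, 21 were lower, with a median of -0.060. The split at 50% was chosen after the values were seen. Of the same 38 members of higher GC content, 38 had lower means at 6 weeks and 100 nM (median -1.06) and at 12 weeks and 10 nM (median -0.84), and 34 had higher means at 48 h and 100 µM (median 0.48). At 6 weeks and 10 nM Pearson's r between difference and GC content was -0.74 over the 78 members and -0.69 over 12065 genes. It is a description across genes, which are not independent replicates. At 48 h it was 0.60 over the members and 0.23 over all genes at 100 µM, and -0.46 and -0.52 at 1 µM. MRPL41 has a GC content of 71.9% and MRPL50 of 35.0%. Among all genes at 6 weeks and 10 nM, 79.5% of those at or above 50% and 20.4% of those below had lower means. The members of at least 50% GC also had the larger within-group SD, a median of 0.76 against 0.36 in the others. Over the genes tested at all times the same split gave medians of 0.55 and 0.48.

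The members' GC content had a median of 48.9%, near the 48.7% of the genes tested at all times, but their transcripts were shorter, with a median of 1516 bases against 3434. By subunit the GC median was 51.5% for the large and 47.3% for the small. The summed epithelial markers, mostly the keratins KRT8 and KRT18, were 54025 to 90132 in the 6 weeks control and 13500 to 27086 at 10 nM. Of the 11 endothelial markers tested, 5 had higher and 6 lower means at that dose, and their sums were 35048 to 78070 and 24487 to 29157. The part of these genes in the members' differences was not tested.

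After 48 h most means lay above the control at the higher doses, within wide spreads. At 100 µM 54 of 78 means were higher, 0 passed (0% of genes), and the median was 0.21 for the large and 0.20 for the small subunit, against 0.034 for all genes. With the first principal component added these medians were 0.0028 and 0.043, and with the correction for GC content and length 0.051 and 0.048. In 1 member, MRPL15, all treated libraries lay above the controls (4.32% of genes), at 0.27 ± 0.27 (SE, adjusted p = 0.993). In 3, MRPL18, MRPL35 and MRPL44, they lay below (6.46% of genes). MRPL54 had the highest difference, 1.01 ± 0.75 (SE, adjusted p = 0.993), with 1247, 919 and 2073 in the control and 3376, 5143 and 1108 at 100 µM. The third replicate at 100 µM stood with the controls, and the groups overlapped. MRPL12 behaved likewise, with 2130.3, 1577 and 3936 and 4616, 6980.1 and 1637. The smallest unadjusted p was that of MRPL44, with 441, 429.9 and 434 in the control and 334, 217 and 428 at 100 µM, -0.47 ± 0.26 (SE, adjusted p = 0.993). MRPL39 was at 0.56, and MRPS6, MRPL32 and MRPS23 were at -0.52, -0.47 and -0.34.

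At 10 µM the replicates were farthest apart. For MRPL28 the values were 3146, 2295 and 5239.9 in the control and 6888, 1776 and 17632 at 10 µM, 0.84 ± 0.80 (SE, adjusted p = 0.960), the highest difference at this dose. The median was 0.14 for the large and 0.18 for the small subunit, 50 of 78 means were higher, and 0 members passed (0% of genes). With the first principal component added these medians were -0.076 and -0.015, and with the correction for GC content and length 0.063 and 0.13. With quantile normalization they were -0.011 and 0.030. Without the second replicate at 10 µM the large subunit median was 0.65, and over the libraries left out in turn it ran from -0.078, without the third replicate at 10 µM, to 0.65. All 8 members without overlap were lower (3.52% of genes; 0 were higher, where 2.67% of genes were). MRPL18, a large subunit protein with a bacterial homologue, had 1022, 957 and 1017 in the control and 755, 765 and 588 at 10 µM. Its difference of -0.52 ± 0.22 (SE, adjusted p = 0.960) had an unadjusted p of 0.0356, the only member under 0.05, where 2.82% of genes were. MRPS23, MRPL44, MRPL32, MRPS31, MRPS6, MRPS28 and MRPS9 were at -0.50, -0.46, -0.52, -0.68, -0.51, -0.42 and -0.21. All 8 have a GC content under 50%. Among all genes, 314 of the 5689 at or above 50% lay below the controls without overlap, and 112 of the 6403 below 50% did.

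At 1 µM the members lay closest to their control: all 78 differences were within 1.2-fold. The means of 62 were lower, with medians of -0.10 for the large and -0.061 for the small subunit, and 0 passed (0% of genes). Leaving out single libraries moved the large subunit median from -0.24 to 0.076. It was above 0 without the third control replicate or the second at 1 µM, so its direction was not resolved. With the first principal component added the medians were -0.014 for the large and 0.0067 for the small subunit. The 1 member without overlap was lower (1.17% of genes; 0 were higher, where 1.14% of genes were): MRPL44, with 441, 429.9 and 434 in the control and 399, 421 and 387 at 1 µM. The smallest unadjusted p was that of MRPS36, -0.25 ± 0.24 (SE, adjusted p = 1.00), and MRPL33, MRPS28 and MRPS27 were at -0.21, -0.19 and 0.16. MRPS27 turned to -0.071 without the third control replicate. At 1 and 100 µM and for the slope over the 48 h doses, 0 members were under an unadjusted p of 0.05 (0.049%, 1.99% and 4.25% of genes). For the slope 0 members passed (0% of genes), and the median was 0.095 for the large and 0.086 for the small subunit.

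At 12 weeks and 10 nM 60 of 78 means were lower, with a median of -0.44 for the large and -0.34 for the small subunit against 0.016 for all genes, and 0 passed (0% of genes). With the first principal component added the medians were -0.12 and -0.036, and with the correction for GC content and length -0.072 and -0.11. MRPL12 had the lowest difference, -1.24 ± 0.72 (SE, adjusted p = 0.655): its values were 4509.7, 10259 and 2362 in the control and 5399, 1484 and 1043 at 10 nM. The first replicate at 10 nM lay inside the range of the controls. MRPL11 had the smallest unadjusted p, with 2807, 3936 and 1699.6 and 2432, 1261 and 931, -0.90 ± 0.47 (SE, adjusted p = 0.655). MRPL40, MRPL57, MRPL21 and MRPS15 were at -0.75, -0.69, -0.82 and -0.94. The 1 member without overlap was lower (1.22% of genes; 0 were higher, where 2.06% of genes were): MRPL9, with 914, 854 and 849 in the control and 831, 729 and 659 at 10 nM, -0.24 ± 0.26 (SE, adjusted p = 0.675). The highest difference was that of MRPL30, 0.45 ± 0.29 (SE, adjusted p = 0.655).

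At 100 nM after 12 weeks the large subunit median was -0.24 and that of the small subunit -0.014, and 0 members passed (0% of genes). With the first principal component added these medians were 0.13 and 0.14, and with the correction for GC content and length 0.027 and -0.054. The means of 48 members were lower and of 30 higher. MRPS18A was lowest at -0.95 ± 0.71 (SE, adjusted p = 0.751), with 1048, 2045 and 534 in the control and 684, 1007 and 228 at 100 nM, overlapping. No overlap was found upward for 2 members (2.07% of genes), MRPL32 and MRPS6, and downward for 0 (2.57% of genes). MRPL32 had 548, 282 and 571 in the control and 711, 714 and 675 at 100 nM, 0.65 ± 0.32 (SE, adjusted p = 0.751). MRPS30 had the highest difference, 0.76 ± 0.48 (SE, adjusted p = 0.751), with control values of 452, 124 and 458, the second far below the others. Without single libraries the large subunit median ran from -0.54 to 0.063, the latter without the third replicate at 100 nM.

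At 1 nM after 12 weeks 47 means were lower and 31 higher, with medians of -0.16 for the large and -0.044 for the small subunit, and 0 passed (0% of genes). Without the second control replicate the medians were 0.013 and 0.041. With the first principal component added they were 0.050 and 0.085, and with the correction for GC content and length -0.011 and -0.030. The 1 member without overlap was lower (0.805% of genes; 0 were higher, where 1.66% of genes were): MRPL34, with 969, 1248 and 798 in the control and 656, 785 and 780.4 at 1 nM. MRPL30 had 275, 220.4 and 387 in the control and 469, 341 and 435 at 1 nM, the smallest unadjusted p at this dose, 0.52 ± 0.29 (SE, adjusted p = 1.00). MRPS6, MRPL45 and MRPS35 were at 0.39, 0.35 and 0.42. For the slope over the 12 weeks doses 0 members passed (0% of genes), with medians of -0.12 and -0.031. At an unadjusted p under 0.05 there were 0 members at 1, 10 and 100 nM and for the slope (0.195%, 1.37%, 2.33% and 2.22% of genes). The lowest mean of the 4 groups was at 10 nM for 56 members.

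Whether a dose differed from its control by another amount at 12 than at 6 weeks was tested as a difference of differences on 24 libraries and 12037 genes. At 10 nM the median was 0.34 for the large and 0.26 for the small subunit, positive for 54 of 78 members, and 0 passed (0% of genes). MRPL55 had the largest positive value, 1.12 ± 1.03 (SE), and MRPL19 the most negative, -0.56 ± 0.63 (SE). At 100 nM 66 values were positive, with medians of 0.33 and 0.30, and at 1 nM 40 were, with medians of -0.0017 and 0.11. In both, 0 members passed (0% of genes). At an unadjusted p under 0.05 there were 0 members at 1, 10 and 100 nM (0.208%, 0.349% and 0.565% of genes). The smaller differences at 12 weeks were therefore not resolved from those at 6 weeks.

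Genes that work with the mitoribosome were described by lists beside the members, and limma called 0 genes of these lists in the 15 comparisons (0% of all genes). edgeR called 0 in the 12 comparisons within a time (0% of genes), and DESeq2 called some at 6 weeks only, at 10 nM and for the slope. At 6 weeks and 10 nM, where it called 30.4% of all genes, DESeq2 called 2 of 5 mitoribosomal proteins under other symbols and 7 of 28 assembly factors and rRNA-modifying enzymes, all lower. It called 5 of 16 translation factors, 2 higher and 3 lower, 1 gene in each direction of 9 of mitochondrial transcription, and 0 of 9 regulators of biogenesis. At an unadjusted p under 0.05 limma had 2, 10, 6, 4 and 3 genes of these lists, in the same order, where 44.0% of all genes were. Of 5 mitoribosomal proteins under other symbols, 4 had lower means at 6 weeks and 10 nM. GADD45GIP1, a large subunit protein also called CRIF1, was at -2.19 ± 0.70 (SE, adjusted p = 0.0953) and AURKAIP1, of the small subunit, at -1.93 ± 0.64 (SE, adjusted p = 0.0953). Of 28 assembly factors and rRNA-modifying enzymes, 22 were lower and 6 higher, with a median of -0.44. The rRNA methyltransferase MRM1 was at -1.33 ± 0.38 (SE, adjusted p = 0.0953). Of 16 translation factors 9 were lower and 7 higher, with a median of -0.10, and the elongation factor GFM1 and its relative GFM2, which recycles ribosomes, were at 1.28 ± 0.44 (SE, adjusted p = 0.0953) and 1.28 ± 0.42 (SE, adjusted p = 0.0953). Among 9 genes of mitochondrial transcription, 5 were higher and 4 lower. TFAM, which packages the mitochondrial genome and takes part in its transcription, was at 1.22 ± 0.47 (SE, adjusted p = 0.0953), and the RNA polymerase POLRMT at -1.61 ± 0.67 (SE, adjusted p = 0.0992). Of the 9 regulators of mitochondrial biogenesis tested, 7 were higher, with a median of 0.58, and the GABP subunit GABPB1 was at 0.65 ± 0.27 (SE, adjusted p = 0.0992).

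The exons of 41 members overlap those of another gene in GENCODE release 29, 16 on the same strand and 29 on the other. The use of strand in the counting is not given in the sources used here, so reads of such pairs could be split or shared. Among them are MRPL12, MRPL28, MRPL23, MRPS18A, MRPL53, MRPS12, MRPL19 and MRPS27, whose values are uncertain for that reason. Of the 37 members without such an overlap, 26 had lower and 11 higher means at 6 weeks and 10 nM, with a median of -0.90.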

How the data were processed

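RNA from 36 libraries of 1 cell line, 3 in each of 12 groups, was analysed from 3 tables, 1 for each exposure time. Each deposited table holds a signal for every gene, and the authors obtained it by dividing read counts by a size factor for each library. Whole reads were recovered for 100% of values within 0.01 of a whole number, and 1 row without a gene name was left out. Per the submitters' processing notes HISAT, Bowtie2, DESeq2 and GRCh38.p14 were used, with no versions. For the read counter and strandedness, the setting is not given in the sources used here.

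A mean of at least 10 was required, and tests ran on log2(signal + 1) with limma 3.58.1 (lmFit, eBayes with trend, R 4.3.3), 2-sided, with 12 libraries a table and Benjamini-Hochberg adjustment over all genes. The 12 and 6 weeks differences were compared on 24 libraries. Fold changes on this scale understate low genes. The p-values measure the spread between these replicates. A slope is the change per dose step over the 4 group means. Tests were checked on simulated counts. Alternatives were DESeq2 1.42.0 and edgeR 4.0.16, run with the recovered reads, other pseudocounts (0.1 and 10), filters (none, and a mean of at least 50) and scalings, library weights, covariates, and each library left out. The first principal component came from the same 12 libraries of a time, dose groups included. It held 78.0% of the variance at 48 h, 83.8% at 6 weeks and 69.2% at 12 weeks. A fit with it can take up a dose difference itself, so it cannot decide a direction. GC content and length came from the longest transcript in GENCODE release 29, and gene positions and promoters from RefSeq (GRCh38.p14). Tables and figures used Python 3.11.15, pandas 2.3.3 and matplotlib 3.10.9.

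Members were named where they passed. Otherwise those with a mean of at least 50, no overlap with the control and the smallest unadjusted p were named, up to 12 in each direction, or the 5 with the smallest p where fewer than 5 had no overlap. Members with a textbook role, the 5 highest and 5 lowest per kilobase and the 3 of largest and 3 of smallest spread were added. Members named for the lowest or highest difference, for their promoter or as the single members without overlap were chosen after their values were seen. The members and lists were chosen with earlier results of these data known. Same-numbered replicates deviated together in the 6 weeks control and 10 nM groups (r of 0.34 to 0.66 in every pair), which was the case in 1 of 18 pairs of groups, and the labels do not say what a number marks.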

Additional observations from a re-analysis of the deposited data

How the results depend on the processing

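With a replicate block, limma called 0 members in 15 of 15 comparisons, as without it. The counts of members called moved with library quality weights, for which the estimation stopped before its convergence tolerance. Each count of the 78 members is followed by the share of all genes called in the same fit. They were 5 at 48 h and 1 µM (13.4%), 71 at 100 µM (88.7%) and 52 for the 48 h slope (57.9%), and 60, 68, 52 and 67 at 6 weeks for 1, 10 and 100 nM and the slope (75.3%, 84.3%, 68.7% and 82.1%). At 12 weeks they were 10 at 1 nM (33.5%) and 61 at 10 nM (73.9%), and for the difference of 12 and 6 weeks 49 at 1 nM (52.9%) and 14 at 10 nM (39.4%). Of the 60 at 6 weeks and 1 nM 49 were higher, and of the 10 at 12 weeks and 1 nM 7 were higher. Without weights most means were lower in both comparisons. DESeq2 called 35 members at 6 weeks and 10 nM (30.4%) and 32 for that slope (26.0%), and a fit on only the groups compared called 40 at 10 nM (38.9%). Without single libraries the slope at 6 weeks had 0 to 50 members called, 50 without the first replicate at 1 nM (58.1%), and the other 14 comparisons 0. Directions turned with library weights for MRPS27 at 48 h and 1 µM (-0.053), MRPL17 and MRPL48 at 6 weeks and 1 nM (0.43 and 0.56) and MRPL45 at 12 weeks and 1 nM (-0.0083). Without single libraries MRPS27 at 48 h and 1 µM ran from -0.071 (without control replicate 3) to 0.32. At 6 weeks and 1 nM MRPL17 ran from -1.18 to 0.16, MRPL34 from -0.56 to 0.071 and MRPL48 from -0.63 to 0.14, with the highest values without the first replicate at 1 nM. In a fit with the first principal component added, MRPL19, MRPL50, MRPL42 and MRPL44 were at -0.0045, -0.078, -0.10 and -0.13 at 6 weeks and 10 nM, and MRPL19 and MRPL42 at -0.050 and -0.079 at 100 nM. With the GC and length correction, with or without the replicate block, MRPL42 and MRPL36 were at -0.48 and 0.45 at 10 nM and MRPL42 at -0.31 at 100 nM. Of 342 subunit medians under alternatives, 15 moved by more than the replicate spread, and 2 of these and 28 of the other 327 changed sign. The cause was not tested for any of these. Of 1387 values of named members under alternatives, 73 passed, 48 with weights, 13 on only the groups compared and 12 with DESeq2. Depth limits the lowest members, with 34 reads at the least, and 3 libraries a group limit all comparisons.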
